A study of Homo sapiens with 13 samples.

Results

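The repeats of the 45S ribosomal RNA gene (rDNA) carried 344 of the 39356 S9.6 peaks in the 3 merged peak lists of a DRIP-seq series. A peak belonged to them when at least 1 bp of it lay in chr21:8100000-8600000 or on the contigs chrUn_GL000220v1 and chr22_KI270733v1_random of the hg38 build, the stretches of the assembly in which copies of the repeat are annotated. They were 111 of the 4625 peaks of the control list, 105 of the 13157 peaks after REXO4 knockdown and 128 of the 21574 peaks after RNaseH1 knockdown. DRIP-seq sequences the DNA pulled down with S9.6, an antibody against hybrids of DNA and RNA. The cells were U2OS, a human osteosarcoma line, transfected with a control siRNA (siCtrl), an siRNA against REXO4 (siREXO4) or an siRNA against RNaseH1 (siRNaseH1). The 13 samples comprised 3 S9.6 IP libraries and 1 input library for each transfection and 1 IgG library from siCtrl cells. The series asked whether both proteins act on R-loops at the same places.

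The authors merged the 3 IP libraries of each transfection before calling peaks, so each value below comes from 1 merged list, has no SD or n, and allows no test between transfections. The lists do not measure REXO4 or RNaseH1 themselves, so the depth of either knockdown was not checked here.

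An rDNA unit holds a 45S gene and an intergenic spacer. RNA polymerase I transcribes the 45S gene into a precursor that starts with the 5′ external transcribed spacer (5′ ETS) and holds the 18S, 5.8S and 28S rRNAs, separated by the internal transcribed spacers ITS1 and ITS2. The spacers of the precursor are cut away in the nucleolus, and the nascent, GC-rich transcript of this heavily used gene is a known partner in DNA-RNA hybrids. RNaseH1 cleaves the RNA strand of such hybrids, and REXO4 is a nucleolar member of a family of RNA exonucleases.

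The windows hold 8 copies of the unit. On chromosome 21 these are RNA45SN2 (chr21:8205988-8219302), RNA45SN3 (chr21:8389035-8402343), RNA45SN1 (chr21:8433222-8446572) and a truncated copy that is annotated by its 18S pseudogene RNA18SP5 (chr21:8253842-8255704). RNA45SN4 and a truncated copy with RNA18SP4 were placed on chr22_KI270733v1_random, and RNA45SN5 and a truncated copy with RNA18SP3 on chrUn_GL000220v1. The gene table gives positions for these last 4 copies but not the name of the contig, so their placement rests on the match between those positions and the peaks. In the 5 complete copies 18S, 5.8S and 28S follow each other with rising coordinate. In the 3 truncated copies the ends of the 45S gene and 28S were projected from 18S with the spacing of the complete copies, so 28S of a truncated copy means this projected stretch. The copies are nearly identical in sequence and a cell holds many more than the assembly shows. A fragment therefore cannot be placed uniquely, and the 8 copies are not replicates of each other.

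Both hairpin genes below mark stretches at the 5′ end of the gene that none of the lists covered with a peak. They are from RefSeq (GRCh38.p14), lie on the plus strand and are written 5′ to 3′. The hairpin gene MIR6724-2 (chr21:8249505-8249596) lies 592 bp before the 45S start of the RNA18SP5 copy, in the stretch directly ahead of the transcribed region. MIR10396B (chr21:8436324-8436374) begins 3102 bp into RNA45SN1, in the 5′ ETS. Capitals mark the mature arms in the hairpins, and bases 2 to 8, the seed, in the mature miRNAs. The GC content was 83.7% in the MIR6724-2 hairpin and 86.3% in the MIR10396B hairpin.
MIR6724-2 hairpin: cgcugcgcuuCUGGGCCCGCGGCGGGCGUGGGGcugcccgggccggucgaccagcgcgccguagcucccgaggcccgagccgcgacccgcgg
hsa-miR-6724-5p: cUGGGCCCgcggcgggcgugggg
MIR10396B hairpin: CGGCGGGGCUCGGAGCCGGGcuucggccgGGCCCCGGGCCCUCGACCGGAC
hsa-miR-10396b-5p: cGGCGGGGcucggagccggg
hsa-miR-10396b-3p: gGCCCCGGgcccucgaccggac

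The rDNA peaks stayed near 1 number while the lists grew. The whole siREXO4 list was 2.84 times and the whole siRNaseH1 list 4.66 times as long as the siCtrl list, whereas the rDNA peaks numbered 0.946 and 1.15 times those of siCtrl. They made up 2.40% of the siCtrl list (95% exact binomial interval 1.98 to 2.88%), 0.798% of the siREXO4 list (0.653 to 0.965%) and 0.593% of the siRNaseH1 list (0.495 to 0.705%). These intervals, like all others here, cover counting error only. On chromosome 21 lay 61 of the siCtrl peaks, 61 of the siREXO4 peaks and 70 of the siRNaseH1 peaks, and the rest were on the 2 contigs.

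In covered length siRNaseH1 was below siCtrl, while siREXO4 was slightly below it in both number and length. The siCtrl peaks covered 179 kb of rDNA, the siREXO4 peaks 175 kb and the siRNaseH1 peaks 152 kb, or 8.86%, 2.54% and 1.37% of all peak bp of each list. Against siCtrl the covered length was 0.978 times in siREXO4 and 0.851 times in siRNaseH1, beside 3.42 and 5.49 times for the whole lists. The full siRNaseH1 list thus had the most rDNA peaks and the least rDNA under peaks. The order by number depended on list length. Limited to as many peaks as siCtrl, siRNaseH1 had 100 rDNA peaks and siREXO4 101, beside 111 in siCtrl. The siRNaseH1 peaks then covered 139047 bp, still the least. In the full lists the siRNaseH1 peaks were narrower, with a median width of 714.5 bp (266 to 6382 bp). The medians were 865 bp (269 to 6438 bp) for siCtrl and 912 bp (259 to 6425 bp) for siREXO4. All 3 medians were above those of the whole lists, which were 337, 384 and 394 bp. Peaks of at least 1200 bp made up 38.7% of the siCtrl rDNA peaks, 44.8% of the siREXO4 ones and 28.1% of the siRNaseH1 ones, against 2.27%, 5.62% and 4.58% of the whole lists.

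The fold enrichment deposited by the authors is the coverage at a peak's summit over the caller's local background, and it describes a peak within its own list. Over the rDNA peaks siCtrl had a median fold of 4.09 (1.44 to 42.7), siREXO4 of 4.65 (1.65 to 37.6) and siRNaseH1 of 2.91 (1.27 to 31.2), while the medians of the whole lists were 4.83, 4.98 and 5.12. In siRNaseH1, 105 of the 128 rDNA peaks were under the median fold of their list, beside 54 of 105 in siREXO4 and 62 of 111 in siCtrl. By p-value, in contrast, rDNA peaks stood high in each list. They held 64 of the first 100 places by lowest p in the siCtrl list, 37 in that of siREXO4 and 19 in that of siRNaseH1. Lists of such different length show no change by rank.

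Fragment numbers show what lies between these measures. The whole number of fragments at each summit and the local background were computed from the deposited fold and −log10 p. At the rDNA summits siCtrl had a median of 304 fragments, siREXO4 of 348 and siRNaseH1 of 274.5, where the whole lists had medians of 13, 14 and 16. The local background was high as well, with medians of 79.4, 79.1 and 89.8 fragments, or 62.2, 56.2 and 66.2 times the lowest background of the list. The summits inside the units, from 5 kb before a 45S start to 45 kb after it, all had at least 79 fragments. The siCtrl list had 105 such peaks, the siREXO4 list 98 and the siRNaseH1 list 126. The other 6, 7 and 2 peaks of the windows lay outside the units and had at most 31 fragments.

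**Figure D1:**
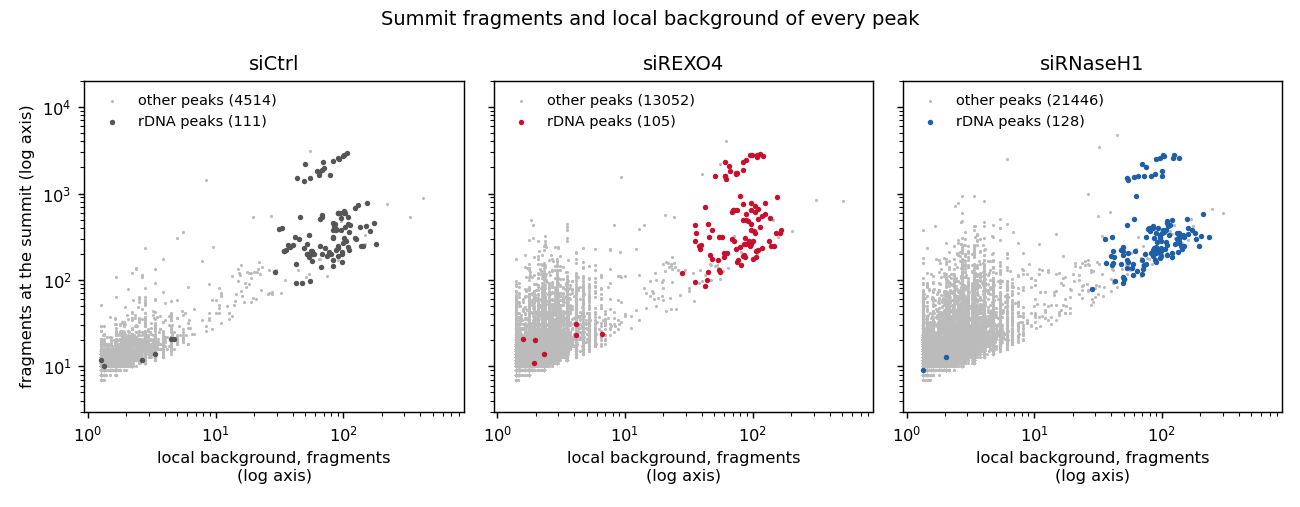
Each point is a peak, with its local background on the x axis and the fragments at its summit on the y axis (both log axes), for the 3 merged lists; coloured points are the rDNA peaks. In all 3 lists most rDNA peaks sit at a higher background than most other peaks, and the few at the lower left are the 6, 7 and 2 peaks outside the units.

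Peaks covered the whole of 18S and of 5.8S in all 8 copies and in each list, and at least 93.1% of 28S in the 5 complete copies. The copies on the contigs were placed by the match of gene positions with the peaks. Their cover is therefore not independent of that placement, and only the chromosome 21 copies bear on it. By summit, 8 siCtrl peaks lay in 18S, 1 in 5.8S, 10 in 28S and 19 in the transcribed spacers. A further 8 lay within 2 kb of a 45S boundary and 65 farther out. The siREXO4 counts in that order were 8, 3, 11, 14, 8 and 61, and those of siRNaseH1 were 8, 4, 10, 19, 4 and 83. The higher number in siRNaseH1 was thus in the class farthest from the genes.

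**Figure D2:**
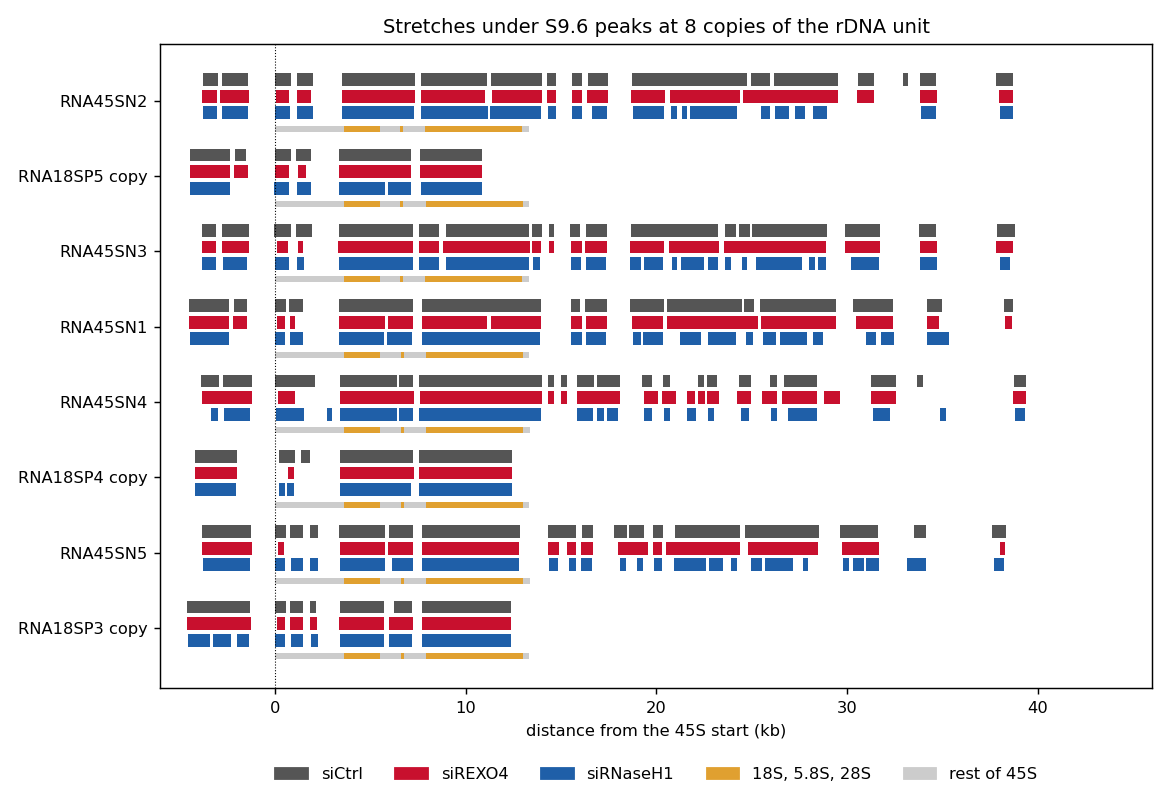
Horizontal bars show the stretches under peaks in the 3 merged lists at the 8 copies, by distance from the 45S start in kb; the strip under each copy marks the 45S gene with 18S, 5.8S and 28S. Peaks cover 18S and 5.8S in every copy, no list has a peak over most of the 1 kb before the start, the siREXO4 bars in the 5′ ETS are short, and the siRNaseH1 bars cover less of the spacer.

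The rRNA-coding parts held the strongest peaks in each list. The 18S summits had 1716 to 2962 fragments (siCtrl), 1702 to 2867 (siREXO4) and 1595 to 2768 (siRNaseH1). The highest 28S summits of the copies ranged from 1400 to 2518, from 1477 to 2704 and from 1428 to 2771. The ranges of the 3 lists overlapped. Within each list the 4 chromosome 21 copies stood above the 4 copies on the contigs. In siCtrl, 18S had 2553 to 2962 fragments on chromosome 21 and 1716 to 1861 on the contigs, and 28S had 2175 to 2518 and 1400 to 1632. Both knockdown lists showed the same split.

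The peak of highest fold was at the same place in all 3 lists, in 28S of the RNA18SP5 copy. Its fold was 42.7 for siCtrl (chr21:8257816-8261072), 37.6 for siREXO4 (chr21:8257811-8261060) and 31.2 for siRNaseH1 (chr21:8257833-8261059), with 2175, 2305 and 2201 fragments over backgrounds of 50.0, 60.4 and 69.5. The fragments thus differed less than the folds, because the backgrounds differed. In each list these fragments were the fewest among the highest 28S summits of the chromosome 21 copies. These summits lay at different places of 28S. In siCtrl the summit was 10520 bp after the start in the RNA18SP5 copy, and 12396 to 12580 bp after it in RNA45SN1, RNA45SN3 and RNA45SN2. The background at this truncated copy was the lowest among these summits of the chromosome 21 copies. In siCtrl it was 69.6 at the highest 28S summit of RNA45SN2, 82.2 at that of RNA45SN3 and 92.7 at that of RNA45SN1. Copies on the contigs had siCtrl backgrounds of 43.3 (RNA45SN5), 48.9 (RNA18SP4 copy), 55.0 (RNA18SP3 copy) and 64.5 (RNA45SN4), so a low background was not particular to this copy. In siCtrl the next 4 folds were 34.0 in 28S of RNA45SN5, 32.4 in 28S of RNA45SN2, 28.8 in 18S of RNA45SN4 and 28.4 in 28S of RNA45SN3. In siREXO4 they were 31.5 in 28S of RNA45SN2, 30.4 in 28S of the RNA18SP3 copy, 28.8 in 18S of RNA45SN3 and 27.7 in 18S of the RNA18SP5 copy. In siRNaseH1 they were 27.96 in 28S of the RNA18SP3 copy, 27.5 in 18S of the RNA18SP5 copy, 27.1 in 28S of RNA45SN1 and 26.5 in 28S of RNA45SN2. All of these peaks lay in 18S or 28S.

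The widest peak was also in 28S, at RNA45SN4 on chr22_KI270733v1_random, with 6438 bp for siCtrl, 6425 bp for siREXO4 and 6382 bp for siRNaseH1. The next in siCtrl were a 28S peak of 6238 bp at RNA45SN1 and a spacer peak of 6054 bp at RNA45SN2 (chr21:8224712-8230765). In siREXO4 they were a spacer peak of 5333 bp at RNA45SN3 (chr21:8412590-8417922) and a 28S peak of 5094 bp at RNA45SN5. In siRNaseH1 both were in 28S, of 6194 bp at RNA45SN1 and 5118 bp at RNA45SN5. Spacer peaks were among the widest 3 in siCtrl and siREXO4 and not in siRNaseH1.

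**Figure D3:**
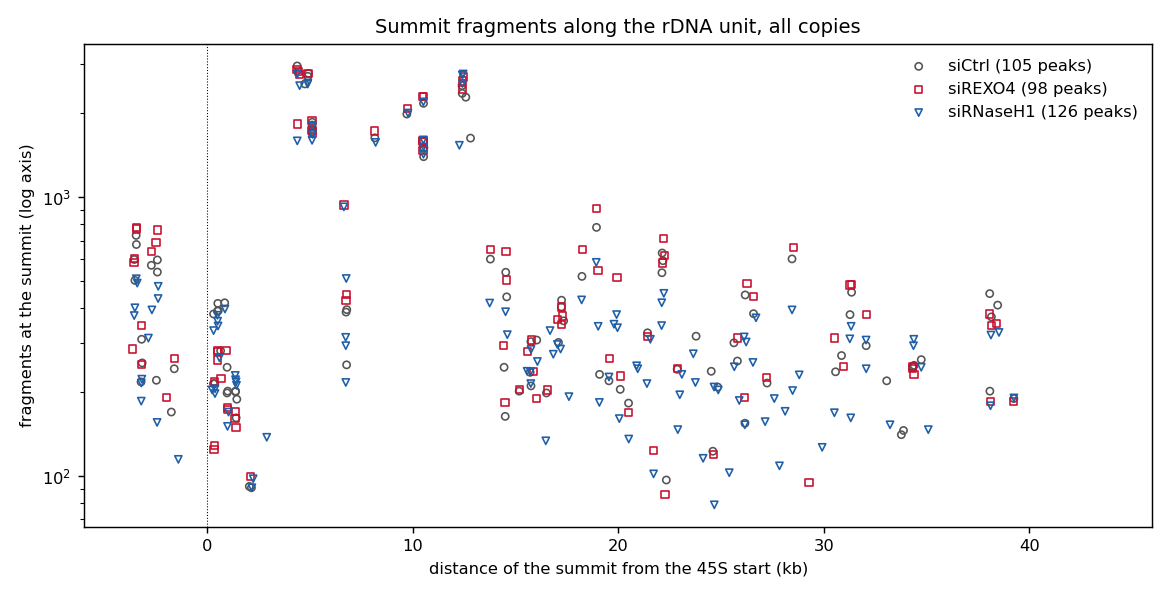
Each symbol is an rDNA peak inside a unit, with the distance of its summit from the 45S start in kb on the x axis and its fragments on a log y axis, for the 3 merged lists. The 18S and 28S summits lie between 1400 and 2962 fragments in all lists; just after the start siREXO4 summits reach 283 fragments beside 419 in siCtrl, and before it siRNaseH1 summits reach 511 beside 731.

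To compare lists, summit fragments were divided by the lowest background of their list (1.28 fragments for siCtrl, 1.41 for siREXO4 and 1.36 for siRNaseH1), and the ratio to siCtrl was taken at the highest summit of each stretch in each copy. The 5′ ETS, the leading part of the precursor, was where siREXO4 differed most from siCtrl. At RNA45SN2 siCtrl had 417 fragments at the summit, siREXO4 280 and siRNaseH1 346. At RNA45SN3 it had 391, 283 and 378 fragments. At RNA45SN1 it had 382, 219 and 333 fragments. On chromosome 21 the RNA18SP5 copy had 393, 261 and 360, so siREXO4 was the lowest list at all 4 copies there.

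The copies on the contigs gave the same order. At RNA45SN4 siCtrl had 282 fragments at the 5′ ETS summit, siREXO4 224 and siRNaseH1 266. At RNA45SN5 it had 215, 125 and 204 fragments. The truncated copies with RNA18SP4 and RNA18SP3 had 419, 282 and 398 and 215, 174 and 206 fragments. In the RNA18SP3 copy the siREXO4 summit lay 978 bp after the start and that of siCtrl 357 bp. Over the 8 copies the scaled ratio to siCtrl was 0.519 to 0.733 in siREXO4 (median 0.609) and 0.780 to 0.909 in siRNaseH1 (median 0.890). At RNA45SN2 the siREXO4 ratio was 0.608, with a 95% exact interval from the counts of 0.521 to 0.709, and the siRNaseH1 ratio was 0.780 (0.675 to 0.902). The siREXO4 and siRNaseH1 values share the siCtrl list.

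The 5′ ETS was also less covered by siREXO4 peaks. Of its 29.2 kb in the 8 copies, siCtrl peaks covered 51.2%, siREXO4 peaks 30.8% and siRNaseH1 peaks 44.4%. The first peak began between 21 bp before and 209 bp after the 45S start in siCtrl, between 29 and 696 bp after it in siREXO4, and between 17 bp before and 231 bp after it in siRNaseH1. At RNA45SN5, siCtrl and siRNaseH1 each had a peak of 202 and 170 fragments and another of 91 and 98 fragments farther into the 5′ ETS, where siREXO4 had none.

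The 5 kb before the 45S start, the end of the intergenic spacer that precedes the promoter, gave another order, with siRNaseH1 the lowest list at all 8 copies. There RNA45SN2 had a summit of 597 fragments with siCtrl, 764 with siREXO4 and 480 with siRNaseH1. At RNA45SN3 it had 540, 691 and 434 fragments. At RNA45SN5 it had 504, 603 and 402 fragments. Over the 8 copies the ratio to siCtrl was 0.884 to 1.16 in siREXO4 (median 1.03, above 1 in 6 copies) and 0.592 to 0.756 in siRNaseH1 (median 0.680, below 1 in all 8). The siRNaseH1 list was thus the lowest upstream of the gene and siREXO4 the lowest at its start.

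**Figure D4:**
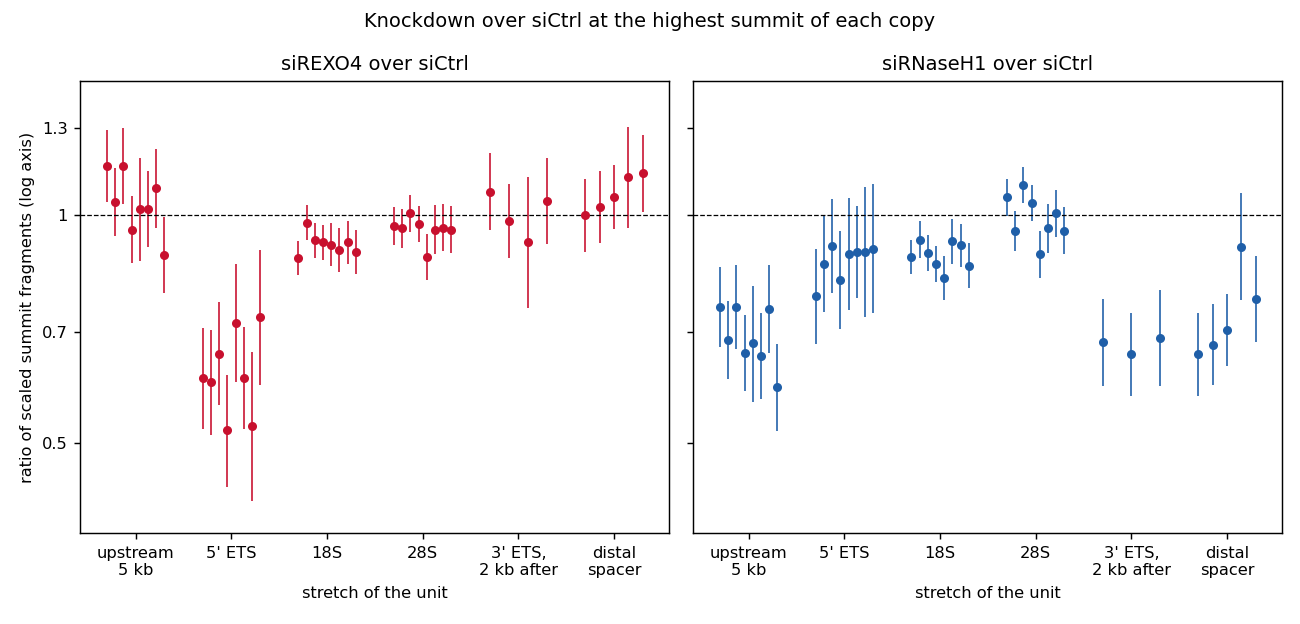
Points are copies, with the ratio of scaled summit fragments, knockdown over siCtrl, on a log y axis and the stretch of the unit on the x axis; bars are 95% exact intervals from the counts. The siREXO4 points in the 5′ ETS lie between 0.519 and 0.733 and the siRNaseH1 points upstream between 0.592 and 0.756, while 18S and 28S lie between 0.825 and 1.09 in both. The siRNaseH1 points also lie between 0.654 and 0.688 from the end of 28S to 2 kb after the gene, and between 0.655 and 0.907 in the distal spacer.

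The ratio at 18S was 0.877 to 0.976 in siREXO4 and 0.825 to 0.927 in siRNaseH1, and at 28S it was 0.880 to 1.00 and 0.886 to 1.09. A measure that needs no scaling between lists is a summit as a percent of the 18S summit of the same copy and list. For the 5′ ETS siCtrl had a median over the copies of 14.2% (11.6 to 24.4%), siREXO4 of 9.90% (6.62 to 16.6%) and siRNaseH1 of 13.7% (11.3 to 23.6%). siREXO4 was below siCtrl in 8 of 8 copies and siRNaseH1 in 5 of 8. For the upstream stretch the medians were 26.4% (17.1 to 34.0%), 27.8% (19.0 to 37.7%) and 19.8% (14.0 to 23.5%). siRNaseH1 was below siCtrl in 8 of 8 copies there and siREXO4 in 1 of 8. For 28S, siRNaseH1 was below siCtrl in 0 of 8 copies (ratio 1.03 to 1.23) and siREXO4 in 2 of 8 (0.963 to 1.10). The size of these percents therefore depends on the choice of 18S as reference. The 5′ ETS and upstream patterns were thus both present within the lists relative to 18S, although copies that share reads do not add independent support.

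**Figure D5:**
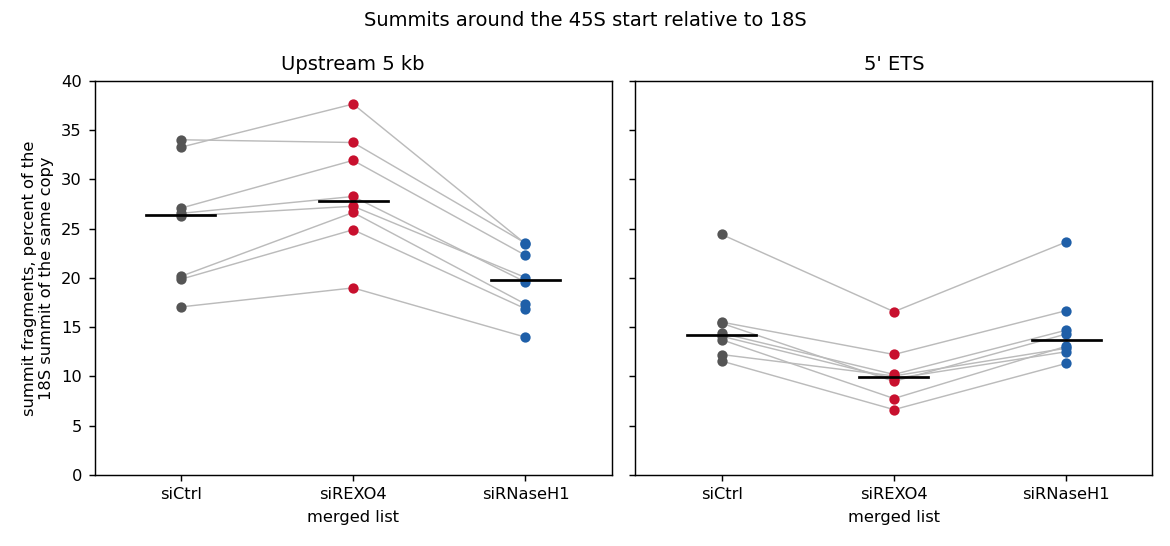
Points are the 8 copies, joined by grey lines, with the highest summit of the upstream 5 kb (left) and of the 5′ ETS (right) as a percent of the 18S summit of the same copy; black bars are medians. In the 5′ ETS the siREXO4 median is 9.90% beside 14.2% in siCtrl, and upstream the siRNaseH1 median is 19.8% beside 26.4%.

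In the intergenic spacer, which has no rRNA product, siRNaseH1 peaks covered less. Over the 4 units that run to a next 45S start, siCtrl peaks covered 54.4% of 124 kb of spacer, siREXO4 peaks 55.7% and siRNaseH1 peaks 40.9%, with 51, 48 and 65 summits. For RNA45SN2 the spacer cover was 60.5% with siCtrl, 60.1% with siREXO4 and 42.8% with siRNaseH1. RNA45SN4 had the least spacer cover, with 39.0%, 47.0% and 31.6%. The higher number of siRNaseH1 summits was not in every unit: RNA45SN5 had 11, 10 and 20 spacer summits, RNA45SN3 13, 12 and 17, RNA45SN2 12, 11 and 14, and RNA45SN4 15, 15 and 14. The stretch from 18669 to 29526 bp after the start of RNA45SN2 was under 3 siCtrl peaks, 3 siREXO4 peaks and 8 siRNaseH1 peaks, and its highest summits had 602, 663 and 419 fragments. Beyond 2 kb after the gene, the ratio at the highest summit of 5 copies was 0.997 to 1.13 in siREXO4 and 0.655 to 0.907 in siRNaseH1. At RNA45SN4 these summits lay at different places, 16031 bp after the start in siCtrl and 32078 bp in siREXO4. Over all 35 shared loci of the distal spacer the siREXO4 ratio had a median of 0.943 (0.765 to 1.20), with 23 below 1, and the siRNaseH1 ratio one of 0.739 (0.571 to 1.166), with 33 below 1. The siREXO4 direction thus differed between the highest summits and all spacer loci.

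Directly before the 45S start, where the promoter for RNA polymerase I lies, no list had a summit, and the first peak of the gene reached at most 21 bp ahead of the start. From the last peak before the start to the first one after it, the gap was 1226 to 2199 bp for siCtrl, 1351 to 2661 bp for siREXO4 and 1287 to 2422 bp for siRNaseH1. All 4 annotated MIR6724 hairpins on chromosome 21, of which the sequence is shown above, lay in this gap and under no peak. Another gap without a peak in any list was in the 5′ ETS ahead of 18S, from 1473 to 3376 bp after the start of RNA45SN1, where MIR10396B lies, and from 2028 to 3509 bp at RNA45SN2. The peak over 18S began 116 to 290 bp before 18S in all copies and lists. Further gaps without a peak in any list lay in the spacer, and the longest of these ran from 34732 to 37825 bp after the start of RNA45SN2 and at like places in RNA45SN3, RNA45SN4 and RNA45SN5. A gap says only that the caller made no peak there over a high local background.

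Few rDNA peaks were particular to a list. Of the 105 siREXO4 rDNA peaks, 4 overlapped no siCtrl peak (3.81%), where the background over the whole siREXO4 list was 85.2%. Of the 128 siRNaseH1 rDNA peaks, also 4 overlapped none (3.12%), where the background was 90%. In the other direction, 7 of 111 siCtrl rDNA peaks had no siREXO4 peak, beside a background of 57.4%, and 16 had no siRNaseH1 peak, beside 53.4%. Of these 16, 11 were in the units. Between the knockdowns, 90 of the 105 siREXO4 peaks (85.7%; background 54.2%) overlapped a siRNaseH1 peak, and 121 of the 128 siRNaseH1 peaks (94.5%; background 33%) a siREXO4 peak. All 3 lists together covered 143 kb in common, 75.6% of the rDNA under a peak in any of them. An overlap of 1 bp is likely wherever peaks lie this densely. The siCtrl peaks alone covered 78.4 to 86.9% of the complete 45S genes and 54.4% of the spacer. Peaks are far sparser over the rest of the genome, so the contrast with the backgrounds does not measure how alike the lists are in rDNA.

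The peaks without a siCtrl peak were weak. In siREXO4 the 3 of highest fold were chr21:8180787-8181048 (fold 4.09, 11 fragments) and chr21:8198353-8198683 (3.26, 24 fragments), both outside the units, and a spacer peak at RNA45SN4 with a fold of 2.72 and 124 fragments. In siRNaseH1 they were chr21:8359185-8359450 outside the units (4.24, 9 fragments), a peak in the 5′ ETS of RNA45SN4 (2.33, 138 fragments) and a spacer peak at RNA45SN4 (2.03, 147 fragments). None of the 6 lay in 18S, 5.8S or 28S.

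Overlapping peaks of the 3 lists were joined into loci, of which 109 were in rDNA and 83 of these in all 3 lists (76.1%, beside 5.25% of the 29435 loci of the series). Here too the dense cover of rDNA makes overlap likely. Over the 83 loci the median scaled ratio to siCtrl was 0.948 in siREXO4, with 58 below 1, and 0.825 in siRNaseH1, with 74 below 1. Over the 1463 shared loci outside rDNA the medians were 1.23 and 1.95, and over the 44 of those with at least 100 siCtrl fragments they were 1.08 and 1.15. Among these 44 are loci of the 5S gene array on chromosome 1, another repeat described below. A ratio of at most 0.8 was found in siREXO4 at 15 of the 83 rDNA loci (background 11.6%), 13 of them among the 14 loci of the 5′ ETS. In siRNaseH1 it was found at 39 (background 8.86%), of which 9 were among the 10 upstream loci and 23 among the 35 distal spacer loci. A ratio of at least 1.25 was found at 1 rDNA locus in siREXO4 (background 46.5%), which lay outside the units, and at 0 in siRNaseH1 (background 67.9%). Most loci behind these backgrounds had far fewer fragments than rDNA. Over the 44 loci outside rDNA with at least 100 siCtrl fragments, 22.7% in siREXO4 and 34.1% in siRNaseH1 had a ratio of at least 1.25. A ratio of at most 0.8 was found at 2.27% and 11.4% of them. Without scaling, the siREXO4 median over the 83 loci was 1.05 and that of siRNaseH1 0.877, so the direction of the small siREXO4 difference over all of rDNA depended on the scaling.

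Of the 26 loci that were not in all 3 lists, 12 were in siCtrl and siREXO4 but not in siRNaseH1, 8 of them inside the units. A further 3 were in siCtrl and siRNaseH1 but not in siREXO4, all inside units, and 2 of these were the 5′ ETS loci of RNA45SN5 named above. Both knockdowns had 1 locus in common that siCtrl lacked, in the spacer of RNA45SN4, with 124 fragments in siREXO4 and 102 in siRNaseH1. The other 10 were in 1 list each.

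The other repeated rRNA locus is the array of 5S genes on chromosome 1 (chr1:228610266-228646158), which RNA polymerase III transcribes. All 17 genes RNA5S1 to RNA5S17 had a peak inside or within 2 kb in each list, where the background over protein-coding genes, which differ from them in length, was 11.9% for siCtrl, 33.6% for siREXO4 and 39% for siRNaseH1. The array held 18 siCtrl peaks, 20 siREXO4 peaks and 17 siRNaseH1 peaks, with medians of 121.5, 131 and 144 fragments. Over its 17 shared loci the scaled ratio to siCtrl had a median of 1.05 in siREXO4 and 1.10 in siRNaseH1. These loci are also part of the shared loci outside rDNA given above, and some are among those with at least 100 siCtrl fragments, so the 2 comparisons are not separate. The array resembled the 45S repeats in its nearly constant number of peaks, while its median ratio for siRNaseH1 lay above 1 and that of rDNA below.

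Among genes of the machinery that transcribes rDNA, more had a peak in the knockdown lists than in siCtrl, as over all protein-coding genes. Of 25 genes for RNA polymerase I subunits, its initiation factors and its regulators, 3 had a peak inside or within 2 kb in siCtrl (12.0%; background over protein-coding genes 11.9%), 13 in siREXO4 (52.0%; 33.6%) and 18 in siRNaseH1 (72.0%; 39%). Those with a peak in all 3 lists were TAF1D and TOP1. The other gene with a siCtrl peak, TBP (fold 4.13, 10 fragments), had none in either knockdown list. TAF1D, a subunit of the initiation factor SL1, had a highest fold of 6.10 with siCtrl, 12.9 with siREXO4 and 29.2 with siRNaseH1, with 39, 80 and 166 fragments. TOP1, which relaxes supercoils ahead of and behind polymerases, had folds of 6.44, 5.02 and 16.1 with 14, 13 and 37 fragments. POLR2L, a subunit shared by the nuclear RNA polymerases, had no siCtrl peak and folds of 9.87 in siREXO4 and 15.5 in siRNaseH1. POLR1D, a subunit of RNA polymerases I and III, had 10.3 and 11.1, and POLR2F, another shared subunit, 5.45 and 11.2.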

How the data were processed

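S9.6 DRIP-seq peaks were taken from 3 merged lists, 1 per transfection. Per the submitters' processing notes, which give no roles, MACS2 2.1.0.20150731, deepTools 3.5.1, SAMtools 1.17, HISAT2 2.2.1, Trim Galore 0.6.10 and Cufflinks were used, with hg38. How reads that map to several places or are duplicates were handled, which sets how reads spread over rDNA copies, is not given in the sources used here. Nor are read depths and the control library of each call. Per the labels' protocols DNA was sonicated before the IP and a second strand was synthesised before library preparation. The lists hold, as deposited, a fold enrichment (a ratio to local background), −log10 p and −log10 q at each summit, and a score made from −log10 q; the score was not used.

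Whole fragments n and background were computed from the fold, (n + 1)/(background + 1), and the Poisson p; 99.98% or more of the peaks of each list gave a whole number within 0.005 in −log10 p. These are fragments after the authors' filters. The lowest background of a list scaled its fragments. Peaks overlapped when they shared 1 bp. Gene positions came from RefSeq (GRCh38.p14), and all 25 RNA polymerase I genes and 17 5S genes were found. Shares carry exact (Clopper-Pearson) 95% intervals, and intervals of ratios are exact binomial ones; both cover counting error only. The named peaks were, per list, the 5 of highest fold, the 3 widest and the 3 of highest fold without a siCtrl peak. The named RNA polymerase I genes were those with a peak in all 3 lists, then up to 5 of highest fold. TBP was added as the remaining gene with a siCtrl peak. The members and lists were chosen with earlier results of these data known. The stretches of the unit, the joined loci, the limits of 0.8 and 1.25, the minimum of 100 siCtrl fragments and the percent of 18S were chosen after values were seen. No test between transfections was possible. The code was tested on simulated data. Values and figures came from Python 3.11.15 with SciPy 1.17.1, NumPy 2.4.6, Matplotlib 3.10.9 and pandas 2.3.3.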

Additional observations from a re-analysis of the deposited data

How the results depend on the processing

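No paired analysis was possible because the replicates were merged before peaks were called. Counts and covered length scale with the window. On chromosome 21 alone there were 61, 61 and 70 rDNA peaks over 101290, 98959 and 83809 bp in siCtrl, siREXO4 and siRNaseH1, and on the contigs 50, 44 and 58 over 77337, 75761 and 68138 bp. Within 2 kb of a 45S gene there were 52, 51 and 49 over 101950, 97288 and 90935 bp, with median folds of 6.42, 9.08 and 4.83 and median widths of 1181.5 bp in siCtrl and 1191 bp in siRNaseH1. That setting leaves out the spacer, and siRNaseH1 then had the fewest peaks. Limited to as many peaks as siCtrl, siREXO4 had 101 and siRNaseH1 100 rDNA peaks, both below siCtrl, and siRNaseH1 had a median rDNA fold of 3.47. Peaks without a siCtrl peak were 2 in siREXO4 and 1 in siRNaseH1 on chromosome 21, 2 in siREXO4 on the contigs, 8 in siREXO4 when at least 50% of the peak had to overlap, and 2 and 1 in lists as long as that of siCtrl. Of the siREXO4 peaks, 51 on chromosome 21 and 39 on the contigs met a siRNaseH1 peak, and 69 and 52 the other way. By bp, 46.5%, 44.2% and 53.1% of the covered length lay in the 45S gene. With a flank of 1 kb each list had 1 peak beside a 45S boundary.

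Without scaling the siREXO4 median ratio over shared rDNA loci turned to 1.05. Alternatives chosen after seeing the data left siREXO4 below siCtrl in the 5′ ETS (0.672 unscaled, 0.686 relative to 18S). For siRNaseH1 the 5′ ETS ratio moved to 0.946 and 0.974, and the upstream ratio to 0.792 relative to 18S. The siREXO4 ratio in the distal spacer moved to 1.165 unscaled and 1.15 relative to 18S. Read depths are not known, and how far depth limits the weaker rDNA peaks was not tested; the lowest summits called inside the units had 91, 86 and 79 fragments.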

Other observations

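Degenerate rRNA gene copies outside the windows also held peaks, at far lower coverage. Of 23 annotated pseudogenes of 18S, 5.8S and 28S on other parts of the chromosomes, 15 had a peak inside or within 2 kb in siCtrl, 15 in siREXO4 and 15 in siRNaseH1, beside 11.9%, 33.6% and 39% of protein-coding genes. Without the 2 kb flank the counts were 9, 10 and 9. With the flank, their highest summits had 19 to 54 fragments in siCtrl, 16 to 66 in siREXO4 and 16 to 59 in siRNaseH1, where the weakest summits inside the units of the repeats had 91, 86 and 79. The 18S pseudogene RNA18SP on chromosome 22 had the highest of them, with 54, 66 and 59 fragments and folds of 11.03, 13.3 and 7.74. Several of these pseudogenes lie side by side and share a peak, and their reads cannot be told apart from those of the repeats by the peak lists.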
